A study of Mus musculus with 9 samples.

Results

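The immunoglobulin genes described here are the gene segments and constant regions of the 3 antibody loci of the mouse, found in RNA of sorted T follicular helper (Tfh) cells. They were chosen by name, as every row of the deposited count table whose gene symbol begins with Igh, Igk or Igl, apart from Ighmbp2, Igll1 and Iglon5. The table lists 54146 genes, 398 of them under such a name, and 282 of the 398 held counts in 1 or more libraries. They comprised 144 of 185 heavy chain variable (Ighv) segments, 117 of 162 kappa variable (Igkv) segments, 3 of 3 lambda variable (Iglv) segments, 8 of 8 heavy chain constant genes, the kappa constant gene Igkc, 4 of 4 lambda constant (Iglc) genes, 4 of 4 heavy chain joining (Ighj) segments and 1 of 5 kappa joining segments. None of the 21 heavy chain diversity segments and none of the 5 lambda joining segments had a count.

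The cells carried CD4, CXCR5 and PD1 and were sorted from Peyer's patches, the lymphoid follicles of the small intestine. The 5 libraries called WT/mut (replicates 6 to 10) came from mice with 1 wild-type and 1 mutant allele of Tgfbr1, a receptor subunit for TGF-beta, and the 4 called WT (replicates 1, 3, 4 and 5) from wild-type littermates. The labels do not say what the mutation is or in which cells it acts, give no strain, age, sex, litter, sorting day or batch, and do not tie libraries to single animals. The p-values below therefore reflect the spread among the libraries at hand, which may be technical. Each library was made from 300 pg of RNA with a kit that does not mark the strand, and held between 29488827 and 43872741 counts.

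An antibody is built of heavy and light chains. Each chain begins with a variable region, which a developing B cell assembles once by joining V, D and J segments (V and J alone in light chains), so that the progeny of 1 B cell carry the same segments. The heavy chain constant gene sets the isotype: naive B cells use Ighm and Ighd, and after a switch of class a B cell uses an Ighg gene, Ighe or Igha. IgA, encoded by Igha, is the main antibody secreted into the gut, and Peyer's patches are a known site of the switch to it, with TGF-beta among the signals. Conventional T cells do not make antibody, and Tfh cells are the T cells that help B cells in germinal centres.

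The Ighv segment with the most counts was Ighv5-4 in WT/mut 6 and WT 1 and a different one in each of the other 7 libraries, and the ends of these segments are shown to identify them. Some have a close relative among the members: Ighv1-26 is 96.9% identical to Ighv1-18, and Ighv14-1 is 97.4% identical to Ighv14-4. The lines below give the last 48 coding bases, 5' to 3', of these leaders, from the GENCODE M21 transcripts on GRCm38. Capitals mark the codon of the conserved cysteine, after which the third complementarity-determining region begins. The leader of WT/mut 9, Ighv1-14, is annotated as a pseudogene without coding sequence and is named only.
Ighv5-4 (led WT/mut 6 and WT 1, chr12:113597446-113597493, minus strand): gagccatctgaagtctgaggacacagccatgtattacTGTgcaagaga
Ighv1-9 (led WT/mut 7, chr12:114583569-114583616, minus strand): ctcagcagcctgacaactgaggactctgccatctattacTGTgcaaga
Ighv13-2 (led WT/mut 8, chr12:114357759-114357806, minus strand): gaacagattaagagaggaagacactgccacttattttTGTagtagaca
Ighv1-26 (led WT/mut 10, chr12:114788372-114788419, minus strand): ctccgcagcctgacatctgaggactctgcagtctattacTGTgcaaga
Ighv1-67 (led WT 3, chr12:115603940-115603987, minus strand): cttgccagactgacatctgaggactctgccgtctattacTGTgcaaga
Ighv14-1 (led WT 4, chr12:113931953-113932000, minus strand): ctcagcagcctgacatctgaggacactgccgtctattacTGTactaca
Ighv9-3 (led WT 5, chr12:114140692-114140739, minus strand): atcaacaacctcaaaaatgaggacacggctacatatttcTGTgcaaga

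The same stretch of the leading Igkv segments is given because 2 of them each led a pair of libraries: Igkv8-27 in WT/mut 8 and 9, and Igkv3-2 in WT 3 and WT 5. Between 18 and 25 bases followed the cysteine codon in these segments, against 6 to 8 in the heavy chain leaders above.
Igkv12-44 (led WT/mut 6, chr6:69814631-69814678, minus strand): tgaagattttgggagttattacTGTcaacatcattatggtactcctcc
Igkv6-15 (led WT/mut 7, chr6:70406469-70406516, minus strand): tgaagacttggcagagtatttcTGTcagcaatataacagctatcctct
Igkv8-27 (led WT/mut 8 and 9, chr6:70171809-70171856, minus strand): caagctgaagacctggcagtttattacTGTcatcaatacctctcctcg
Igkv1-117 (led WT/mut 10, chr6:68121780-68121827, plus strand): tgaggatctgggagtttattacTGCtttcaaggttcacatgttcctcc
Igkv4-53 (led WT 1, chr6:69648824-69648871, minus strand): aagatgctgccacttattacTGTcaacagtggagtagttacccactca
Igkv3-2 (led WT 3 and WT 5, chr6:70699020-70699067, plus strand): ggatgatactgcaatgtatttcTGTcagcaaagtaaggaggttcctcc
Igkv9-124 (led WT 4, chr6:67942074-67942121, minus strand): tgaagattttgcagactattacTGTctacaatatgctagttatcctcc

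Immunoglobulin genes made up between 0.200% and 0.339% of all counts in a library. Ighm gave most of them. A sum without it was not planned and is given as a description. Without Ighm the summed level was 1537, 1602, 1312, 993 and 544 CPM (counts scaled to library size with TMM factors) in WT/mut 6 to 10, against 190, 213, 729 and 214 CPM in WT 1, 3, 4 and 5. WT/mut averaged 1197 ± 436 (SD, n = 5) and WT 337 ± 262 (SD, n = 4), a ratio of 3.56. The groups overlapped through 1 library of each, WT 4 and WT/mut 10. The difference was smaller with Ighm included. The sum over all members then had means of 2920.5 ± 455 (WT/mut) and 2281 ± 252 (WT), a ratio of 1.28. Over the Igh locus with Ighm the means were 2329 ± 344 (WT/mut) and 2113 ± 232 (WT), a ratio of 1.10. Both of these sums overlapped between the groups. In bulk RNA, fewer cells of a type and less RNA per cell cannot be told apart. The number of immunoglobulin genes with a count was lowest in WT 1, at 82, and highest in WT/mut 7, at 220, and 52 genes had a count in all 9 libraries.

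None of the immunoglobulin genes was called higher or lower by edgeR's quasi-likelihood test with adjustment over all 15521 tested genes. Of those, 0.122% were called in either direction (0.0322% higher and 0.0902% lower in WT/mut). At an unadjusted p under 0.05 there were 40 higher, against 5.69% of all tested genes, and 1 lower, Igkv9-124, against 6.46%. These counts cannot be read as support, because 79 of the 282 genes passed the filter on low counts and 16 of these reached its minimum in all 4 WT libraries, so that many entered the test through the WT/mut libraries where they were high. DESeq2 called 19 immunoglobulin genes, all higher in WT/mut, where it called 1.48% of all genes with an adjusted p as higher. The median edgeR log2 fold change of the 79 was 2.00, beside 0.0015 over all tested genes. That median cannot be read as support either, since 10 of the 79 reached the filter's minimum in no WT library. Without any filter, after rounding to whole counts, mean CPM was higher in WT/mut for 247 of 281 members (87.9%), beside 66.8% of all genes with a count, and 17 members (6.05%) had every WT/mut library above every WT library, beside 1.09%. None had every WT/mut library below.

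Ighm, the constant region of IgM, was the member with the highest level and the lowest spread. It stood at 1698, 1654, 1957, 1436 and 1871 CPM in WT/mut 6 to 10 and at 2310, 1751, 1738 and 1979 CPM in WT 1, 3, 4 and 5. The groups overlapped, and the log2 fold change of WT/mut over WT was -0.17 ± 0.12 (SE, edgeR adjusted p = 0.550). Over the 9 libraries its coefficient of variation was 13.6%, the lowest among members with a mean of at least 1 CPM. Next came Igkv3-2 at 39.6% and Ighd, the constant region of IgD, at 42.2%. Ighd overlapped fully, at 25.3, 13.9, 26.1, 63.4 and 36.3 CPM in WT/mut and 25.2, 30.2, 42.7 and 40.9 CPM in WT (-0.08 ± 0.36, adjusted p = 0.947), and its sign changed when WT/mut 6, WT/mut 7, WT 4 or WT 5 was left out.

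The order of the libraries in Ighm was not that of B cell genes. Cd79a, a signalling partner of every B cell receptor, was highest in WT/mut 9, at 108 CPM, where Ighm was lowest, and lowest in WT 1, at 14.0 CPM, where Ighm was highest. Ighd was highest in the same library as Cd79a, WT/mut 9.

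Igha, the constant region of IgA, was higher in every WT/mut library than in any WT library. Its values were 541, 657, 492, 155 and 157 CPM in WT/mut 6 to 10, and 13.7, 42.9, 86.4 and 21.2 CPM in WT 1, 3, 4 and 5. WT/mut 6, 7 and 8 stood well above 9 and 10, so the spread within WT/mut was wide. The log2 fold change of 3.29 ± 0.66 (SE) did not pass (edgeR adjusted p = 0.106), and DESeq2 called it at nearly the same fold (3.29, adjusted p = 0.000192). Jchain, which links IgA and IgM units for secretion, followed a like order, at 243, 238, 195, 87.3 and 57.9 CPM in WT/mut and 15.8, 20.3, 42.2 and 11.9 CPM in WT (2.86 ± 0.53, edgeR adjusted p = 0.0903). In both genes the 3 highest libraries were WT/mut 6, 7 and 8 and the highest WT library was WT 4.

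**Figure D1:**
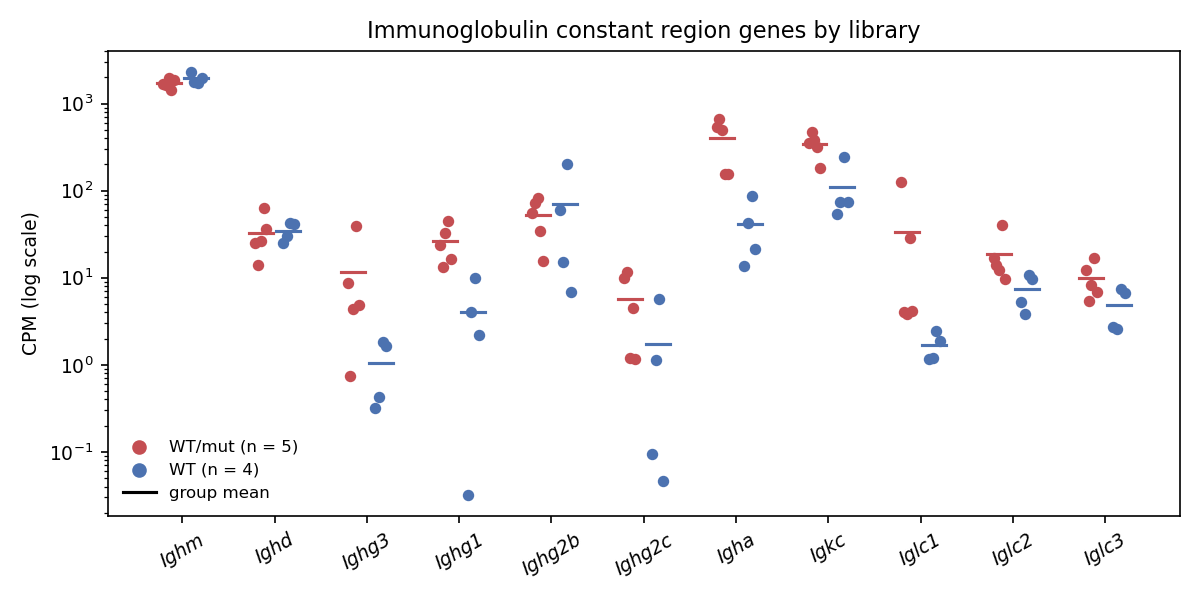
CPM (log axis) of the immunoglobulin constant region genes in each library, red for WT/mut (n = 5) and blue for WT (n = 4), with lines at the group means; Ighg1 in WT 1 is at 0 and drawn near the bottom of the axis, and Ighe and Iglc4, with 7 and 1 counts, are left out. Igha, Ighg1 and Iglc1 have no WT library above a WT/mut library, while the points of Ighm lie close together between 1436 and 2310 CPM.

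The IgG constant genes differed among themselves. Ighg2b was as high in WT as in WT/mut, at 54.8, 71.2, 83.1, 34.5 and 15.6 CPM in WT/mut and 59.4, 15.2, 201 and 6.91 CPM in WT. Its 2 extremes both lay in WT, and the fold of -0.45 ± 0.83 (adjusted p = 0.850) turned to 0.93 without WT 4. Ighg1, an isotype of type 2 responses in mice, stood at 23.6, 13.4, 33.0, 45.1 and 16.4 CPM in WT/mut and at 0, 4.09, 10.0 and 2.19 CPM in WT. Its groups did not overlap, and the fold of 2.69 ± 0.91 did not pass (edgeR adjusted p = 0.320).

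Ighg3 had 1 library far from the rest, WT/mut 9 at 39.6 CPM, with the other WT/mut libraries between 0.752 and 8.62 CPM and WT between 0.316 and 1.83 CPM (3.45 ± 1.03, edgeR adjusted p = 0.276). Without WT/mut 9 the fold was 2.13, and DESeq2 called the gene with all libraries in (3.45, adjusted p = 0.00770). Ighg2c overlapped, at 1.18 to 11.7 CPM in WT/mut and 0.0461 to 5.64 CPM in WT (1.71 ± 1.16, edgeR adjusted p = 0.549; 3.69 without WT 4). Ighg2b and Ighg2c are identical at 87.8% of coding bases. Any reads that match both would be split by the counting model. How many do is not known, so their separate values may be uncertain. Ighe, the constant region of IgE, the antibody of allergy, had 2 counts in WT/mut 8, 5 in WT/mut 9 and none in the other 7 libraries. In WT, 0 of 314049 heavy chain constant counts allows a share of up to 0.000955%, for counting error only.

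Shares of the heavy chain constant counts set isotypes against each other within a library. Ighm made up 68.3% to 96.4% of these counts and its level varied little (coefficient of variation 13.6%). The Igha share therefore largely repeats the Igha level, and the Ighm share is largely what remains. The tests below are not a comparison of isotypes apart from the amount of antibody RNA. Igha took 22.9%, 27.1%, 19.0%, 8.71% and 7.45% in WT/mut 6 to 10, and 0.568%, 2.33%, 4.14% and 1.03% in WT 1, 3, 4 and 5. The groups did not overlap, with means of 17.0% ± 8.7 and 2.02% ± 1.60 (SD). The exact two-sided permutation p was 0.0238, and 0.0952 after adjustment over 6 shares; on a log-odds scale it was 0.00794, the smallest that splits of 9 libraries into 5 and 4 allow, and 0.0476 after adjustment. The higher level of Igha was known when this share was chosen, so the test is not independent of it. Ighm took 68.3% to 89.0% in WT/mut and 83.3% to 96.4% in WT (exact p = 0.0317, adjusted p = 0.0952). The overlap came through WT 4, where the Ighg genes took 10.5% and Igha 4.14%. The shares of Ighd, of the Ighg genes together, of Ighe and of lambda among light chain constants gave adjusted exact permutation p between 0.889 and 0.929.

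With Ighm and Ighd left out, which was chosen after the data were seen, Igha made up 84.8%, 87.1%, 80.2%, 55.6% and 80.4% of the switched isotypes in WT/mut and 18.6%, 67.3%, 28.3% and 66.3% in WT. WT 3 and WT 5 lay above WT/mut 9, so the groups overlapped (exact permutation p = 0.0317, adjusted p = 0.0952). These shares rest on 7115 to 24052 counts in WT/mut and on 1390 to 10499 in WT. Within the Ighg genes, Ighg2b took 56.6%, 73.4%, 68.3%, 27.9% and 40.9% of counts in WT/mut and 99.3%, 72.9%, 92.0% and 64.0% in WT, and the groups overlapped. In WT/mut 9, the lowest, Ighg1 took 36.5% and Ighg3 32.0%.

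**Figure D2:**
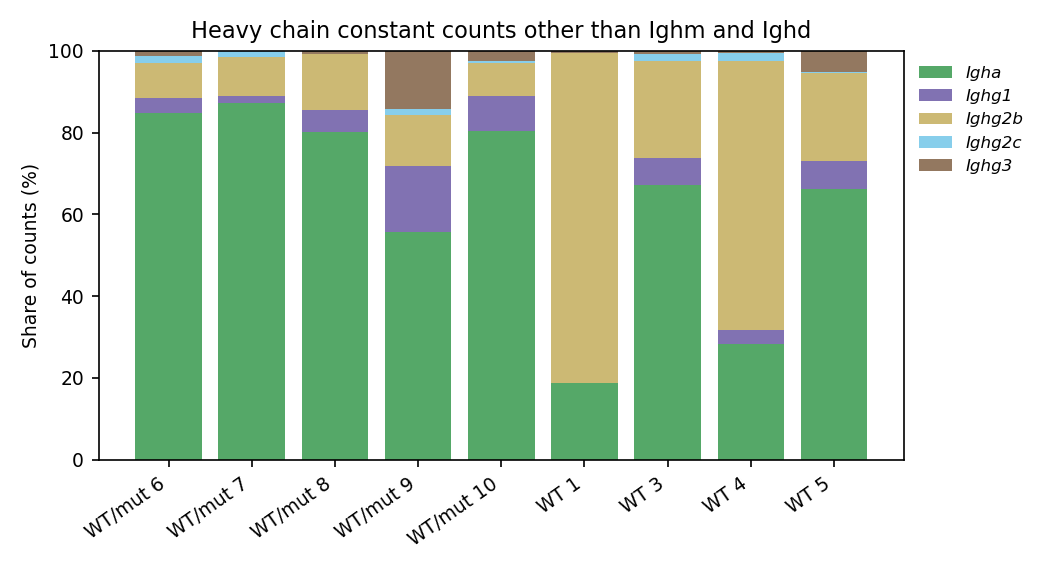
Stacked shares (%) of Igha and the Ighg genes among heavy chain constant counts other than Ighm and Ighd, 1 bar per library, computed from CPM. Igha takes over 50% in all 5 WT/mut libraries and in WT 3 and WT 5, and Ighg2b takes most of WT 1 and WT 4.

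Igkc, the constant region of kappa light chains, was measured at 356, 473, 385, 314 and 182 CPM in WT/mut and at 54.3, 73.7, 241 and 74.5 CPM in WT. WT 4 alone exceeded a WT/mut library, the lowest, WT/mut 10. The log2 fold change was 1.63 ± 0.45 (edgeR adjusted p = 0.254). Without WT 4 it was 2.34 ± 0.28 and rose by the same test (adjusted p = 0.0133), in a fit that called 0.0809% of genes as higher; it was the 1 immunoglobulin gene called by edgeR in any fit without a library. Igkc overlaps the predicted gene Gm30211 on the same strand, and reads of the 2 cannot be told apart here.

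Lambda genes had every WT/mut library above WT in sum, at 256, 27.0, 28.4, 117 and 24.3 CPM against 9.86, 8.83, 22.3 and 20.5 CPM. Most of the difference came from 2 libraries. Iglc1 stood at 125, 4.01, 3.84, 28.9 and 4.10 CPM in WT/mut and at 1.17, 1.20, 2.47 and 1.89 CPM in WT (4.30 ± 1.20, edgeR adjusted p = 0.260; 2.60 without WT/mut 6). Its variable partner Iglv1 had 100.1, 1.57, 2.60, 21.8 and 2.71 CPM against 0.474, 0.670, 1.25 and 1.80 CPM, with WT/mut 6 and 9 high in both genes (4.60 ± 1.35, edgeR adjusted p = 0.274; 2.76 without WT/mut 6). Iglc2 (1.33 ± 0.45, adjusted p = 0.312) and Iglc3 (1.03 ± 0.43, adjusted p = 0.380) overlapped between groups, and Iglc4 had 1 count. Iglv2 was highest in WT/mut 9, at 8.64 CPM (2.90 ± 0.89, edgeR adjusted p = 0.278; 1.59 without that library), and Iglv3 at 0.996 CPM in the same library (2.38 ± 0.99, adjusted p = 0.379).

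Iglv1 and Iglv2 differ at 11 of 351 coding bases, and Iglc2 and Iglc3 are 96.2% identical, so the split within each pair is uncertain. Iglc1, Iglc3 and Iglv1 also overlap the gene 2010309G21Rik on the opposite strand, whose reads the kit does not separate. Bases 121 to 270 of the coding sequence of the 2 Iglv segments are given to show how little separates them, with capitals where Iglv2 differs. In WT/mut 6 Iglv1 stood at 100.1 and Iglv2 at 0.691 CPM, while the pair stood at 1.57 and 1.88 CPM in WT/mut 7.
Iglv1: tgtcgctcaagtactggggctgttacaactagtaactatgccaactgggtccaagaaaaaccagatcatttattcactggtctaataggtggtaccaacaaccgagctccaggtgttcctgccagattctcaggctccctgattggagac
Iglv2: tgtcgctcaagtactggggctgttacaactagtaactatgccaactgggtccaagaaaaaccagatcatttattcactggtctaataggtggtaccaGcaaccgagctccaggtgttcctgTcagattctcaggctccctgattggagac

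Many variable segments were high in a single library. Among the 39 variable segments with a mean of at least 1 CPM, 28 had more than 50% of their summed CPM in 1 library, 25 of these in a WT/mut library, and 5 had more than 90%. An even spread over 9 libraries would put 11.1% in each. A segment can reach that mean through 1 high library alone, as Ighv13-2 did with 97.8% of its CPM in WT/mut 8. The cut thus favours such segments, and these counts cannot be read as a difference between the groups. Igkv3-2 was the 1 segment with under 25% in its highest library, at 3.39, 2.04, 1.70, 3.38 and 3.78 CPM in WT/mut and 2.37, 3.47, 3.02 and 6.11 CPM in WT (-0.39 ± 0.38, adjusted p = 0.678).

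Of the heavy chain segments, Ighv1-9 had 33.0 CPM in WT/mut 7 and at most 1.24 CPM elsewhere, and its fold of 3.72 ± 1.89 (edgeR adjusted p = 0.452) turned to -0.19 without that library. Ighv13-2 had 945 of its counts in WT/mut 8 (25.0 CPM), and 0.300 CPM at most in the other 8 libraries. Ighv7-3 was high in the same library, at 21.7 CPM, with 1.17 CPM at most elsewhere (4.95 ± 1.62, edgeR adjusted p = 0.300; 2.06 without it). Ighv14-1 had 11.1 CPM in WT 4, 1 count in all WT/mut libraries together, and 0.144 CPM in WT 3. Ighv1-26 reached 5.96 CPM in WT/mut 10, Ighv1-67 reached 1.53 CPM in WT 3, and Ighv9-3 reached 1.24 CPM in WT 5 (-0.08 ± 0.77 for Ighv9-3, adjusted p = 0.972).

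The pseudogene Ighv1-14 was shared by several WT/mut libraries, at 1.47, 4.36, 9.54, 13.01 and 0.192 CPM, with WT between 0 and 0.668 CPM (4.50 ± 1.23, edgeR adjusted p = 0.244). The lowest p of any member belonged to Ighv3-6, named after its values were seen, with 630 counts over the WT/mut libraries and 3 over WT (edgeR adjusted p = 0.104). It stood at 3.63, 0.282, 11.5, 1.92 and 0.301 CPM in WT/mut and at no more than 0.0581 CPM in WT. Ighv3-6 passed the filter on low counts through WT/mut alone, since no WT library reached the filter's minimum. Its p can therefore not be read as support.

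Ighv5-4 and its neighbours Ighv5-6 and Ighv5-9 were high together (the last named after its values were seen), in WT/mut 6 at 23.2, 16.4 and 10.7 CPM. In WT 1 the same 3 segments held 83.4% of 307 Ighv counts, with 37.1% for Ighv5-4 (95% Wilson interval 31.9% to 42.7%). Their folds were 2.11 ± 1.18 (adjusted p = 0.479), 2.25 ± 0.84 (adjusted p = 0.339) and 1.79 ± 1.04 (adjusted p = 0.491). Without WT/mut 6 the first was 0.41 and the second 1.16. Ighv5-6 and Ighv5-9 differ from Ighv5-4 at 16 and 21 of 353 coding bases, so how reads were divided among the 3 is uncertain. Bases 121 to 240 of their coding sequences follow, with capitals where a segment differs from Ighv5-4.
Ighv5-4: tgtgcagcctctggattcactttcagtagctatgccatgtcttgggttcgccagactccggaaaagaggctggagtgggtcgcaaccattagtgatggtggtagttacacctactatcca
Ighv5-6: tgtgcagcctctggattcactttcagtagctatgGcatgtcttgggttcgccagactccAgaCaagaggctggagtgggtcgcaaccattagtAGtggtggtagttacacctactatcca
Ighv5-9: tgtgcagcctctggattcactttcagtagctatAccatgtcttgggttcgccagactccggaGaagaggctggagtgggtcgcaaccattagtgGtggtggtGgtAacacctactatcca

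**Figure D3:**
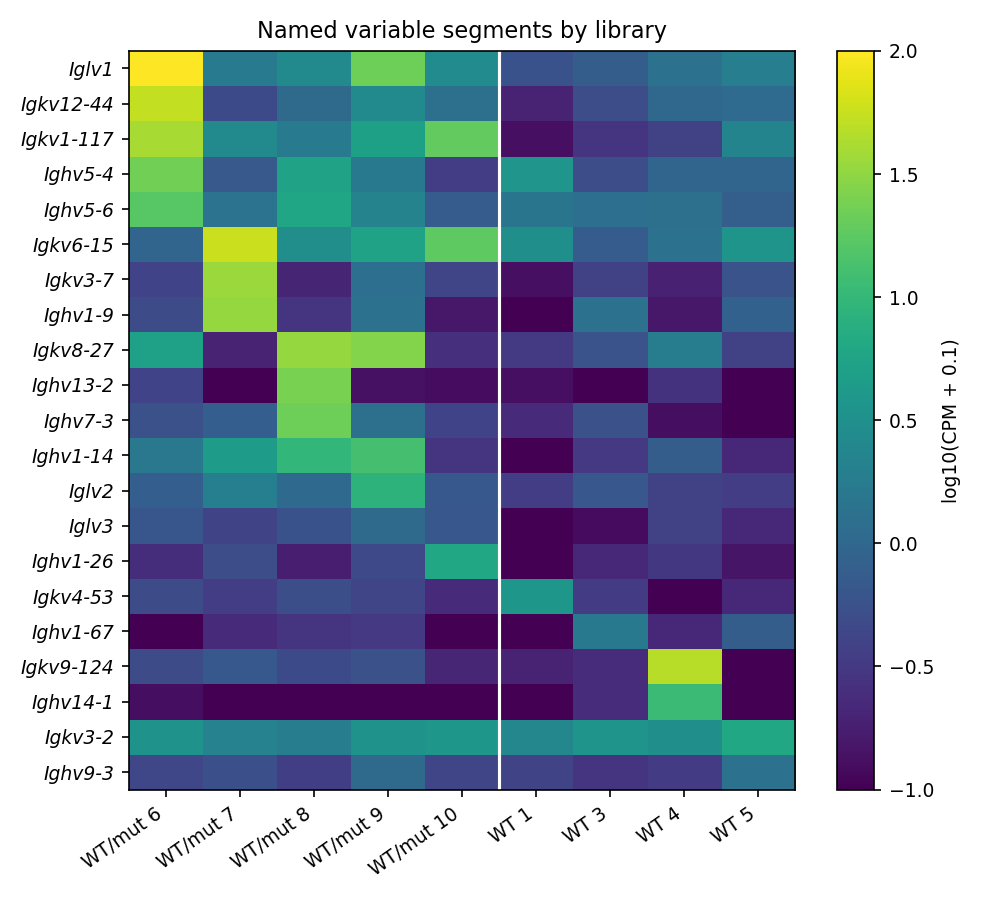
Level of the named variable segments in each library, as log10(CPM + 0.1) in colour, with the 5 WT/mut libraries left of the white line and the 4 WT libraries right of it. Most segments are bright in 1 library or 2, such as Ighv13-2 in WT/mut 8 and Igkv9-124 in WT 4, and Igkv3-2 is even across all 9.

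Several kappa segments were high in 1 library, and others in a pair of libraries. Igkv12-44 had 53.2 CPM in WT/mut 6 and 2.56 CPM at most elsewhere (4.24 ± 1.56, edgeR adjusted p = 0.340; 1.05 without WT/mut 6). Igkv3-7 had 35.5 CPM in WT/mut 7, the next highest library being at 1.14 CPM (5.00 ± 1.86, edgeR adjusted p = 0.340; 1.03 without WT/mut 7). Igkv8-27 was high in WT/mut 8 and 9, at 33.7 and 27.7 CPM, and so was Igkv4-58, named after its values were seen, at 17.6 and 15.9 CPM. These are the 2 libraries in which Ighv1-14 was highest. Igkv1-117 was high in WT/mut 6 and 10, at 40.9 and 19.1 CPM (4.33 ± 1.28, adjusted p = 0.276), and Igkv6-15 in WT/mut 7 and 10, at 57.5 and 17.8 CPM (3.01 ± 1.12, edgeR adjusted p = 0.340; 1.68 without WT/mut 7).

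In WT, Igkv9-124 stood at 48.1 CPM in WT 4 and at no more than 0.144 CPM in the other 3, while WT/mut lay between 0.109 and 0.564 CPM. Its fold of -4.99 ± 1.84 (edgeR adjusted p = 0.340) turned to 2.21 without WT 4. It took 53.0% of the 3124 Igkv counts of that library (95% Wilson interval 51.3% to 54.8%), the largest share of any leading segment. Igkv4-53 was highest in WT 1, at 3.79 CPM (-1.75 ± 1.22, adjusted p = 0.558), and its sign turned without that library.

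The diversity of segments did not separate the groups. The leading segment took 21.7% to 29.3% of Ighv counts in WT/mut and 10.7% to 39.8% in WT, and 17.4% to 30.8% of Igkv counts in WT/mut and 13.2% to 53.0% in WT. WT held both the highest and the lowest values. The inverse Simpson index, an effective number of segments, was 10.3 ± 3.7 in WT/mut and 12.95 ± 10.59 in WT for Ighv, and 9.35 ± 3.98 and 13.1 ± 8.7 for Igkv (SD). All 4 measures had an adjusted exact permutation p of 0.992. At a common depth of 307 counts, the expected number of Ighv segments ran from 31.3 to 69.4 in WT/mut and from 25.0 to 62.8 in WT.

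Joining segments gave 29 counts in all 9 libraries, led by Ighj4 with 14. They are short, at 48 to 54 bases for Ighj, and no statement on their use can be made at this depth.

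Variable and constant regions of 1 transcript can be set side by side per kb of exon. For kappa the ratio of summed Igkv to Igkc was 0.667, 0.683, 0.599, 0.736 and 0.653 in WT/mut 6 to 10 and 0.466, 0.510, 0.555 and 0.664 in WT 1, 3, 4 and 5, a narrow range although Igkc itself varied widely. For the heavy chain constants other than Ighm, the ratio of summed Ighv to constant was 0.677 to 1.13 in WT/mut and 0.550 to 0.947 in WT. Against Ighm alone it was 0.255, 0.354, 0.260, 0.209 and 0.0633 in WT/mut and 0.0198, 0.0296, 0.0829 and 0.0303 in WT. Ighm thus stood at 921 to 1225 CPM per kb in WT, where all Ighv segments together reached 24.3 to 76.4 CPM per kb. Ighm per kb was 12.0, 6.70, 2.04 and 7.49 times Igkc per kb in WT and 0.986 to 2.89 times in WT/mut. With coding length in place of exon length, chosen after the data were seen, the kappa ratio was 0.369 to 0.456 in WT/mut and 0.288 to 0.416 in WT, the ratio of Ighv to the heavy chain constants other than Ighm was 0.328 to 0.556 in WT/mut and 0.266 to 0.472 in WT, and the Ighv to Ighm ratio in WT was 0.0177 to 0.0671.

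**Figure D4:**
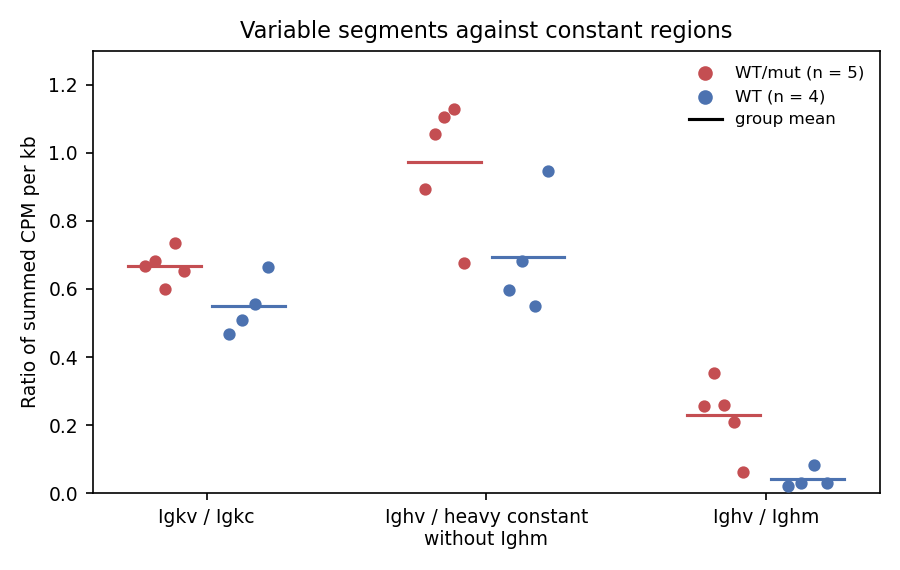
Ratio of summed variable segment level to constant region level, each in CPM per kb of exon, per library (points) with group means (lines). The ratios to Igkc and to the heavy chain constants without Ighm lie between 0.466 and 1.13, and those to Ighm between 0.0198 and 0.354.

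Genes that act with antibody genes, or mark the cells that make them, were read from lists. Of 41 such pathway genes, 34 were tested, and edgeR called none with all libraries in. At an unadjusted p under 0.05, 10 were higher and 2 lower, against 5.69% and 6.46% of all tested genes. Their median log2 fold change was 0.42, beside 0.0015 over all tested genes. The lists were chosen with earlier results known, so these counts cannot be read as support. Apart from Jchain, the lowest p belonged to Il4, a cytokine that directs switching to IgG1 and IgE, at 38.1 to 56.4 CPM in WT/mut and 23.1 to 31.3 CPM in WT (0.78 ± 0.16, edgeR adjusted p = 0.106), and to Il21, a Tfh cytokine that acts on B cells, at 398 to 531 CPM in WT/mut and 532 to 771 CPM in WT (-0.55 ± 0.12, adjusted p = 0.142). Then came the inhibitory Fc receptor gene Fcgr2b (1.18 ± 0.36, adjusted p = 0.278), the plasma cell regulator Prdm1 (0.94 ± 0.30, adjusted p = 0.287) and the B cell factor Spib (1.96 ± 0.66, adjusted p = 0.312). The receptor partners Cd79a (0.99 ± 0.40, adjusted p = 0.371) and Cd79b (0.60 ± 0.31, adjusted p = 0.456) did not pass. Of the genes named from this list, DESeq2 called Jchain (2.86, adjusted p = 5.56e-05), Il4 (0.78, adjusted p = 0.000802) and Fcgr2b (1.18, adjusted p = 0.0482) as higher and Il21 (-0.55, adjusted p = 0.00379) as lower. Without WT 4, edgeR called Jchain (3.35, adjusted p = 0.0491). Rag1, which cuts the segments for joining, had 5.89 CPM in WT/mut 7, 1 count in WT/mut 8 and none in the other 7 libraries, and Igll1, a surrogate light chain gene of B cell precursors, had 25 counts, all in WT/mut 7.

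Markers of B cells were present in all libraries. All 12 B cell markers had a positive fold, with 0 called by edgeR (3 higher and 0 lower at an unadjusted p under 0.05). Over all tested genes, 5.69% were higher and 6.46% lower at that level. The summed level of the B cell markers was 277 to 651 CPM in WT/mut and 135 to 360 CPM in WT. Plasma cell markers summed to 645 to 901 CPM in WT/mut and 553 to 653 CPM in WT, with 6 of 10 tested positive and 0 called (4 higher and 0 lower at that level). Beside Jchain, whose groups did not overlap, Prdm1 was at 9.74 to 25.2 CPM in WT/mut and 6.11 to 14.3 CPM in WT, and Mzb1 at 5.45 to 13.7 and 1.74 to 8.28 CPM. Fkbp11 had 103 counts in WT/mut and 3 in WT. The 4 tested with a negative fold were Sdc1 (-0.21 ± 0.68), Xbp1 (-0.05 ± 0.11), Txndc5 (-0.03 ± 0.13) and Tnfrsf13b (-0.23 ± 0.11). Sdc1 was at 0.575 to 3.52 CPM in WT/mut and 0.632 to 4.21 CPM in WT. Xbp1, a large part of the plasma cell sum, was at 172 to 212 and 170 to 242 CPM. The 30 counts of Tnfrsf17 all lay in WT/mut 6 and 7, at 0.360 and 0.564 CPM, which were also the 2 libraries with the highest Igha and Jchain. Germinal centre B cell markers summed to 428 to 578 CPM in WT/mut and 485 to 562 CPM in WT, with 5 of 8 positive and 0 called (3 higher and 1 lower at that level). The 12 T cell markers, which check the sorted type, summed to 10382 to 10878 CPM in WT/mut and 11627 to 12379 CPM in WT. The sums of the groups did not overlap, and 9 of 12 were negative with 0 called (0 higher and 4 lower at that level). The 4 lower were Icos (mean 806 CPM in WT/mut and 1152 in WT), Trac (1042 and 1342), Cd3d (805 and 951) and Il21 (447 and 656). Positive folds were seen for Cd4 (893 and 810), Bcl6 (414 and 367) and Cd3e (258 and 250). The sum does not give the share of T cells in a library. The part of each cell type in the immunoglobulin values was not tested.

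**Figure D5:**
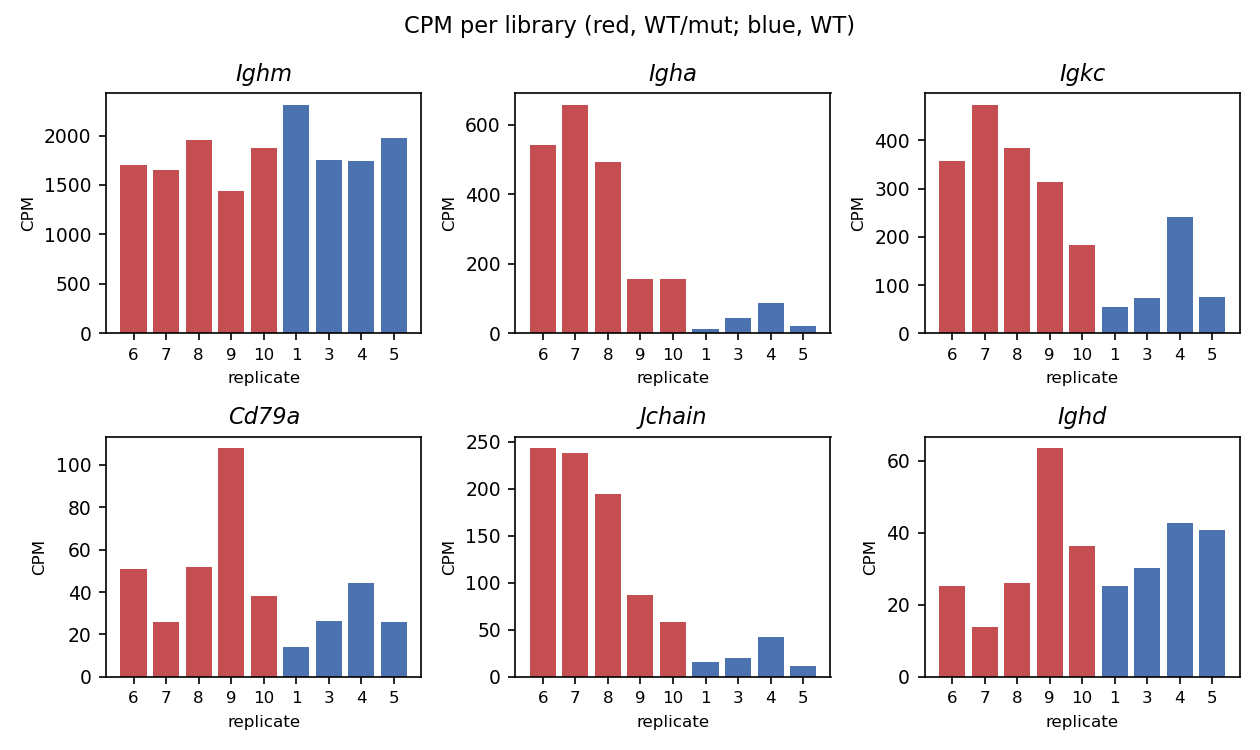
CPM per library of Ighm, Igha, Igkc, Cd79a, Jchain and Ighd, each on its own axis from 0, red for WT/mut replicates 6 to 10 and blue for WT replicates 1, 3, 4 and 5. Igha and Jchain are highest in WT/mut 6, 7 and 8, Cd79a and Ighd peak in WT/mut 9, and Ighm is near level.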

How the data were processed

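Messenger RNA was measured in 9 libraries of sorted Tfh cells, 5 WT/mut and 4 WT. Per gene, the authors deposited expected counts. The tools named in the submitters' processing notes are cutadapt 2.10, STAR 2.5.3, RSEM 1.3.0 and DESeq2, with mm10 as the build; which annotation release was used is not stated in those sources. RSEM divides reads among near-identical segments by a model, and 45.0% of the immunoglobulin values above 0 were not whole. Values were rounded to whole numbers before testing. Mean chi-square values per gene for the 16 pairs of libraries within a group lay between 28.6 and 225, so no pair looked like 1 library under 2 names.

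All 282 members were found by gene identifier in GENCODE M21 (GRCm38, the assembly of mm10), which supplied positions, lengths and, for 221 of them, coding sequences. The symbol Ighv5-8 stands on 2 rows, both kept. Genes were tested with edgeR 4.0.16 in R 4.3.3 (quasi-likelihood F test, robust, TMM, no covariate) on 15521 genes passing filterByExpr (minimum count 10, minimum total 15), with Benjamini-Hochberg adjustment over all of them and a threshold of 0.05. Standard errors were taken as the size of the log2 fold change over the root of F. CPM values are edgeR's with TMM-scaled library sizes. On simulated counts of 14964 genes for this comparison, with 50 genes changed at each size, the test recovered 10 at a fold of 1.5, 25 at 2, 43 at 4 and 49 at 8, and 2 of its 129 calls were false. The changed genes were drawn at random and not from the immunoglobulin genes in particular. Such rates need not hold for members with a wide spread, such as Igha (SE 0.66). Shares of counts and diversity measures were tested by exact two-sided permutation (SciPy 1.17.1) of the group labels over the 9 libraries. Identities are 100% less edit distance over the longer coding sequence (edlib).

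The members and lists were chosen with earlier results of these data known. Named are all constant genes, any member edgeR called with all libraries in (there was none), the 6 Ighv and 6 Igkv segments of highest mean CPM, all Iglv, each library's leading segments, and from the pathway list the 6 of lowest p with Cd79a and Cd79b; members outside this rule were picked from their values. The alternatives tried were DESeq2 1.42.0, limma-voom (limma 3.58.1), other scalings and filters, and leaving out each library. Intervals and floors (3 counts) cover counting error only, since the kit adds no molecular identifiers.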

Additional observations from a re-analysis of the deposited data

Results flagged for a closer look

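Among 114 groups of 4 or 5 libraries checked, 32 held 1 library far from the rest of its group, 17 of them in WT/mut. A library counted as far when its gap to the nearest other library, over the range of its group, passed Dixon's 95% critical value. For normally distributed values chance passes it in about 1 in 20 groups. That rate does not hold for genes with 1 count in a group, and genes of 1 locus are not independent. Nor does it hold for segments named because they led a library, as that choice favours 1 high library. The number of flags can therefore not be set against it. WT replicate 4 was such a library most often in WT. It was high in Igkc (241 CPM, the next WT library at 74.5), Igkv9-124 (48.1 CPM), Ighv14-1 (11.1 CPM) and Igkv8-27 (1.74 CPM). In sums it was high for all members without Ighm (729 CPM), the Igh locus without Ighm (376 CPM), heavy chain constants without Ighm (348 CPM), the Igk locus (331 CPM) and Ighv segments (28.0 CPM), and its Ighm share was low, at 83.3%.

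In the other WT libraries, Ighv5-4 (3.60 CPM) and Igkv4-53 (3.79 CPM) were high in replicate 1, Iglv2 (0.551 CPM) in replicate 3, and Ighv9-3 (1.24 CPM) and Igkv1-117 (2.17 CPM) in replicate 5.

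In WT/mut, replicate 6 stood apart in Iglc1 (125 CPM), Iglv1 (100.1 CPM), the Iglv sum (101 CPM), Igkv12-44 (53.2 CPM) and Ighv5-4 (23.2 CPM). It also held the 1 count each (0.0300 CPM) of Ighv14-1 and Iglc4. Replicate 7 was high in Igkv3-7 (35.5 CPM) and Ighv1-9 (33.0 CPM), replicate 8 in Ighv13-2 (25.0 CPM) and Ighv7-3 (21.7 CPM), and replicate 10 in Ighv1-26 (5.96 CPM). Replicate 9 was high in Iglc2 (40.0 CPM), Ighg3 (39.6 CPM), Iglv2 (8.64 CPM), Ighv9-3 (0.996 CPM) and the Ighe share (0.0100%, from 5 counts).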

How the results depend on the processing

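The numbers of immunoglobulin genes called higher and lower were 0 and 0 in all fits but DESeq2 (19 higher, out of 112 members given an adjusted p) and the fit without WT 4 (1 higher); over the fits without 1 library the number higher ran from 0 to 1. Of 601 alternative values for 36 named genes, 572 kept their direction and side of the threshold, 14 newly passed, 12 of them with DESeq2 and the others Igkc and Jchain (3.35, adjusted p = 0.0491) without WT 4, and 15 changed sign. With limma-voom the log2 fold changes that turned were 0.36 for Ighg2b, 0.34 for Ighv9-3 and 1.31 for Igkv4-53. Over the fits without 1 library, Ighg2b ran from -0.83 to 0.93, Ighd from -0.45 to 0.12, Ighv1-9 from -0.19 to 4.59, Ighv9-3 from -0.54 to 0.92, Igkv9-124 from -5.41 to 2.21 and Igkv4-53 from -2.18 to 1.32. The Igha share difference passed on the log-odds scale (3.53, adjusted exact permutation p = 0.0476), where the range of adjusted p without 1 library was 0.0857 to 0.171 on the percent scale. Differences in share without 1 library ran from -0.586 to 0.161 percentage points for Ighd, -0.388 to 2.93 for Ighg and -2.29 to 4.10 for lambda, whose log-odds difference was -0.0562. The Ighv inverse Simpson difference turned with the Shannon number (1.86), with segments under 10 counts set to 0 (2.27) and at the lowest library total (2.93), and ran from -5.71 to 1.91 without 1 library; the Igkv difference turned at the lowest total (0.0360). Leading shares ran from -5.06 to 4.64 percentage points for Ighv and -7.23 to 6.04 for Igkv. The difference in summed Igk level was 348 CPM and, without the leading member, 117 CPM, as that member is Igkc in every library. The cause of the other changes was not tested. The addition of coding lengths and of the Igha share without Ighm and Ighd was chosen after seeing the data. The sums without Ighm were not planned either. No paired analysis was possible because the WT/mut and WT libraries share no replicate number.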
